A study of Homo sapiens with 6 samples.

Results

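TC28a2 is an immortalised human chondrocyte line, and the libraries described here are the 3 of 6 in the series that came from TC28a2 cells transfected with a control vector. They were chosen by their labels alone (control vector, replicates 1, 2 and 3). RNA was taken 48 hours after transfection, and the libraries are of the DRUG-seq type, a cheap RNA sequencing method for many samples in parallel. The other 3 libraries, from cells given a vector for overexpression of the protease FAP, serve here only in an alternative scaling. The levels are those of 1 cell line in culture after transfection. The labels do not name the vector backbone or the culture medium, nor whether each replicate was its own culture, so the spread between libraries may be technical.

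Cartilage chondrocytes are defined by the transcription factor SOX9, which with SOX5 and SOX6 drives the genes for type II collagen and the proteoglycan aggrecan. Chondrocytes grown flat on plastic are known to dedifferentiate, losing these products and making type I collagen and fibronectin as fibroblasts do. The line was made with the large T antigen of a simian virus, a protein that binds the RB family and so uncouples the cell cycle from its inhibitors. Transcripts of that antigen were not analysed here.

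In replicates 1, 2 and 3 the summed count was 5736056, 9434553 and 12446373, and 16365, 17375 and 18358 genes had at least 1 count. Levels are in CPM, the count of a gene relative to its library's total after TMM scaling. Each is given for replicates 1, 2 and 3 in that order, or as mean ± SD with n = 3. A gene is called expressed where it reached 1 CPM in each of the 3 libraries, which took 6, 10 and 13 counts. The level that 3 counts stand for was 0.532, 0.322 and 0.234 CPM, and a gene with 0 counts may lie anywhere up to it. These limits cover counting error only. Ratios between different genes are given both per kilobase of the longest annotated transcript and in CPM, which does not correct for transcript length. DRUG-seq is known as a method that primes at the poly(A) tail, where counts need not scale with length, and which scale suits these libraries was not tested. Where counts do not scale with length, the ratio in CPM is the one to read. No test between groups was made, and every statement is a description of these libraries.

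Of 28395 genes in the table, 12325 (43.4%) were expressed, 1525 (5.37%) reached 1 CPM in only 1 or 2 libraries, 6002 (21.1%) had counts but stayed under 1 CPM in all 3, and 8543 (30.1%) had 0 counts in all 3. Among 19171 protein-coding genes the shares were 59.8% expressed, 5.55% intermediate, 18.3% low and 16.3% at 0. Of 4108 long noncoding RNA genes 447 were expressed. The median expressed gene lay at 22.6 CPM, with the 10th and 90th percentiles at 3.03 and 147 CPM. The 155 genes that averaged 1000 CPM or more held 31.3% of all counts. The 10 genes with the highest CPM held 5.11%, 4.99% and 4.83% of counts in replicates 1, 2 and 3. All 37 mitochondrially encoded genes stood at 0 counts in all 3 libraries, so the levels here are shares of nuclear gene counts only.

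The highest CPM values belonged to genes of glycolysis, translation, the cytoskeleton and protein folding. GAPDH, a glycolytic enzyme, was at 8114, 8241 and 7995 CPM and led the table. It was followed by the elongation factor EEF1A1 (6001 ± 140.0 CPM), the cytoskeletal actin ACTB (5684 ± 431 CPM) and the ribosomal protein RPLP1 (4835 ± 198 CPM). The cytosolic chaperones HSP90AB1 and HSP90AA1 were at 4454 ± 509 and 4265 ± 487 CPM. S100A6, a calcium-binding protein, was at 3459 ± 276 CPM and ACTG1, the second cytoskeletal actin, at 3440.2 ± 100.2 CPM. TUBA1B, an alpha tubulin, was at 3017 ± 158 CPM. Ribosomal protein genes, among them RPLP1, RPL37A, RPS18, RPL13A, RPS19, RPL26, RPS2 and RPL41, filled 10 of the first 20 ranks and 53 of the first 100. They held 14.6%, 15.3% and 14.2% of counts in replicates 1, 2 and 3. The noncoding RNA genes SNAR-B1 and SNAR-B2 also stood among the first 20, with 29311, 35018 and 42734 counts for SNAR-B1 and 29305, 35006 and 49508 for SNAR-B2. They are near-identical copies, so how reads were assigned to them is uncertain. Their counts nearly matched in replicates 1 and 2 but not in replicate 3. The same reads may stand in both counts, so the pair may not be separate observations. Whether reads were counted more than once was not tested.

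Set against the chondrocyte label, SOX9 was present and most other chondrocyte markers were near the detection limit. Of 16 chondrocyte markers only SOX9 was expressed, 2 were intermediate and 13 stayed under 1 CPM, with a median of 0.25 CPM. Of 15 fibroblast markers 12 were expressed, 2 were intermediate and 1 was under 1 CPM, with a median of 33.7 CPM. Among all protein-coding genes 59.8% were expressed, with a median of 5.43 CPM. In bulk libraries, fewer cells of a type and less RNA per cell cannot be told apart. Summed over the markers, the chondrocyte set reached 26.6, 35.8 and 35.6 CPM and the fibroblast set 3056, 3462 and 3857 CPM. Few genes set these sums. VIM alone gave 1542, 1509.8 and 1814 CPM of the fibroblast sum, followed by COL1A1, FN1 and SPARC, and SOX9 gave most of the chondrocyte sum. SOX9 (Entrez 6662; GRCh38.p14 chromosome 17, 72121020 to 72126416) was at 22.0, 31.2 and 31.4 CPM, from 124, 291 and 403 counts. Replicate 1 was the lowest and replicates 2 and 3 were nearly equal. SOX5 and SOX6, the partners of SOX9, had 0, 0 and 1 and 2, 3 and 0 counts. In no library did either partner exceed the level that 3 counts stand for.

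**Figure D1:**
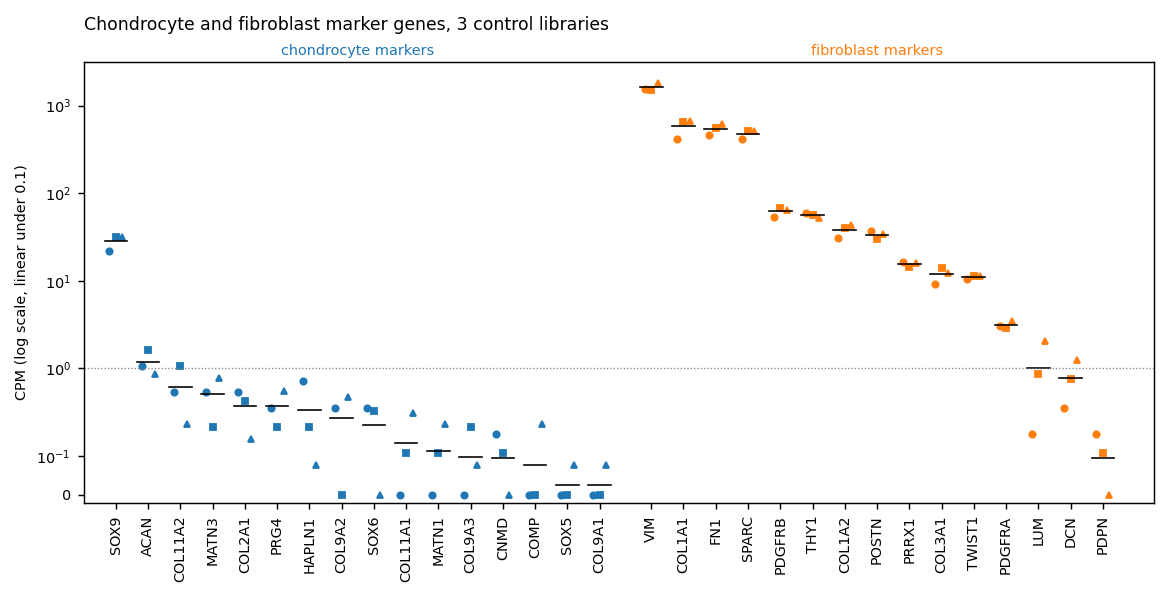
Levels of 16 chondrocyte and 15 fibroblast marker genes in the 3 control libraries, in CPM on a log scale that is linear under 0.1. Circles, squares and triangles are replicates 1, 2 and 3, black lines are means and the dotted line marks 1 CPM. SOX9 is the only chondrocyte marker with all 3 points above 1 CPM, while 12 of the 15 fibroblast markers lie wholly above it.

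Promoter sequences differed in base composition between expressed genes and genes at 0 counts. As examples the 250 bases before the annotated start are given for FN1 and IL11, both expressed, for ACAN, close to 1 CPM, and for TNF and CXCL8, both under 1 CPM in every library. Sequences are from RefSeq (GRCh38.p14), run 5′ to 3′ in the direction of the gene, and capitals mark a match to CCAAT or TATAAA on either strand.
FN1 (chr2:215436069-215436318, minus strand): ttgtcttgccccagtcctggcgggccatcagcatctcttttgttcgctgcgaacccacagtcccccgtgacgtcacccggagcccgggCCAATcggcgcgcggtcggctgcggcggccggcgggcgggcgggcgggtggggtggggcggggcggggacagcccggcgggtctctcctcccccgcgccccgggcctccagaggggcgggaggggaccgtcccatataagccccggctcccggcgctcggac
IL11 (chr19:55370464-55370713, minus strand): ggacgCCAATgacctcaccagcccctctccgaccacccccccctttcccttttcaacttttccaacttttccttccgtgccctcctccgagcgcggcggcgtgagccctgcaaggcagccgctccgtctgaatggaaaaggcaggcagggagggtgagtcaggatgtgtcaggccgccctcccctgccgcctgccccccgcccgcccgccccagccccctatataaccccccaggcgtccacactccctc
ACAN (chr15:88803186-88803435, plus strand): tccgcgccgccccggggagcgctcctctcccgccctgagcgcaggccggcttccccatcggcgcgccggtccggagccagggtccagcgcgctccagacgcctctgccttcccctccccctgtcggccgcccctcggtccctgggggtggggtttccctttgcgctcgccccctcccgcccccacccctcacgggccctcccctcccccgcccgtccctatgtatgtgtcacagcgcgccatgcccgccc
TNF (chr6:31575315-31575564, plus strand): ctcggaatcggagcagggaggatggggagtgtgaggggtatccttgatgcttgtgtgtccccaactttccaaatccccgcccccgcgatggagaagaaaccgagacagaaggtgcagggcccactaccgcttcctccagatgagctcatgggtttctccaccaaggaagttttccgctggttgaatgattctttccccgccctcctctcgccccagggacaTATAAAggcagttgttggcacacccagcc
CXCL8 (chr4:73740319-73740568, plus strand): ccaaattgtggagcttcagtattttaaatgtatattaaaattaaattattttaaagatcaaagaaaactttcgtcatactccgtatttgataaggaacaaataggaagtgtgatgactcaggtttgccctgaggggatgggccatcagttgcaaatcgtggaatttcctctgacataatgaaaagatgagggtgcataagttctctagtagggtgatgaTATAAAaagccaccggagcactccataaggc
The FN1 promoter was 76.4% G and C with 32 CG dinucleotides, and its CCAAT begins 162 bases before the start. IL11 had 67.2% and 16, with a CCAAT that begins 245 bases before the start. ACAN had 77.2% and 28 and held neither motif. TNF had 57.2% and 10, and CXCL8 37.6% and 4, with TATAAA 29 and 31 bases before the start.

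Over 15330 protein-coding promoters of this length, GC content was lower in each lower level class. The median was 65.2% in 9500 promoters of expressed genes, 62.0% in 800 of intermediate genes, 58.0% in 2635 of low genes and 51.6% in 2395 of genes at 0 counts. The median number of CG dinucleotides was 21, 15, 8 and 4 in the same order. TATAAA stood in 5.05%, 9.25%, 13.2% and 20.8% of these promoters, against 9.13% of all. CCAAT was nearly even, in 35.5%, 33.25%, 32.5% and 34.4%, against 34.7% of all. The order of TATAAA did not hold within expressed genes, where it stood in 4.28% of promoters of genes at 10 to 100 CPM, 6.56% at 100 to 1000 CPM and 10% of the 110 at 1000 CPM or more. Interleukin genes had the lowest median GC content of the lists described here (47.6% over 39 of 53 members with a promoter), with TATAAA in 11. Chemokine genes followed at 49.2% (21 of 30 members), with TATAAA in 9. Fibroblast matrix genes had 69.6% (26 of 36 members), with TATAAA in 4. A match is a description of letters and not of a bound factor.

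The RUNX factors were present beside SOX9, while the SOX partners were near 0. Of 23 chondrogenic factors 13 were expressed, 2 were intermediate, 7 were low and BARX2 was at 0, a share of 56.5% against 59.8% of protein-coding genes. RUNX3, a RUNX family factor, was at 103, 106 and 102 CPM. RUNX1 was at 37.8 ± 5.86 CPM and RUNX2, the main factor of hypertrophic chondrocytes and osteoblasts, at 10.3 ± 1.52 CPM. Per kilobase RUNX3 stood 13.8 ± 2.08-fold above RUNX2 and SOX9 4.10 ± 0.81-fold above it, without overlap between libraries. In CPM the ratios were 10.2 ± 1.53 and 2.75 ± 0.54. FOXC1, a mesenchymal forkhead factor, was at 23.0 ± 2.96 CPM. The hedgehog effector GLI3 was at 17.5 ± 0.950 CPM, and GLI1, a target of hedgehog signalling, lay near the threshold at 0.532, 1.502 and 0.936 CPM. NKX3-2, a chondrogenic factor downstream of hedgehog signalling, stayed low with 3, 1 and 3 counts. BARX1 and MEF2C were at 1.18 ± 0.728 and 0.553 ± 0.346 CPM. ZEB1, the factor that the title of the series is about, was at 29.8, 26.7 and 28.0 CPM, and the related ZEB2 at 11.7 ± 2.01 CPM.

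Cartilage matrix genes were mostly at or near the detection limit. Of 34 such genes 5 were expressed (14.7% against 59.8% of protein-coding genes), 3 were intermediate, 21 were low and 5 had 0 counts. Their median was 0.196 CPM against 5.43 CPM over all protein-coding genes. COL2A1, the main collagen of cartilage (Entrez 1280; chromosome 12, 47972967 to 48006212), had 3, 4 and 2 counts, that is 0.532, 0.429 and 0.156 CPM. ACAN, aggrecan (Entrez 176; chromosome 15, 88803436 to 88875353), had 6, 15 and 11 counts, that is 1.06, 1.61 and 0.858 CPM. Both were detected in all 3 libraries but at a level where a handful of counts sets the value. Collagens IX and XI, the partners of collagen II in the cartilage fibril, had at most 10 counts for any of their 5 chains in any library. COMP, a cartilage glycoprotein, had 0, 0 and 3 counts. CHAD, CILP, CRTAC1, EPYC and UCMA had 0 counts. CHAD lies wholly within the span of ACSF2. Whether counting used strand is not given in the sources used here, so a 0 is uncertain for any gene that overlaps another.

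The expressed matrix genes of this list were led by BGN and VCAN in CPM. BGN (biglycan), a small leucine-rich proteoglycan, was at 45.8, 51.6 and 60.7 CPM. VCAN (versican), a large proteoglycan of loose connective tissue, was at 28.2, 19.6 and 26.5 CPM. HAPLN3, a hyaluronan link protein, was at 4.002 ± 1.02, MATN2, a matrilin, at 2.12 ± 0.796 and CYTL1, a small secreted protein, at 1.93 ± 0.329 CPM. DCN (decorin) and COL11A2 lay under 1 CPM on average, at 0.785 ± 0.448 and 0.613 ± 0.425 CPM. With at least 10 counts in every library as the threshold, 3 of the 34 genes passed.

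Most hypertrophy and mineralization genes were not expressed. Of 17 genes 5 were expressed (29.4% against 59.8% of protein-coding genes), 2 were intermediate, 8 were low and 2 were at 0, with a median of 0.379 CPM. SLC20A1 and SLC20A2, phosphate transporters, were at 106 ± 4.63 and 19.0 ± 3.02 CPM, ANKH, a pyrophosphate and ATP exporter, at 41.6 ± 3.58 CPM, and ENPP1, which makes pyrophosphate, at 7.68 ± 1.38 CPM. COL10A1, the collagen of hypertrophic cartilage, had 1, 1 and 2 counts. ALPL, alkaline phosphatase, was at 0.532, 1.18 and 1.17 CPM, below 1 CPM in replicate 1 and above it in the others. PHOSPHO1, a phosphatase of matrix vesicles, had 4, 6 and 0 counts. MMP13, the collagenase of hypertrophic chondrocytes, was at 0.887, 1.72 and 2.26 CPM. DMP1 and BGLAP had 0 counts. BGLAP lies wholly within the readthrough gene PMF1-BGLAP, which also had 0 counts.

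Most fibroblast matrix genes were expressed, with COL1A1, FN1 and SPARC at the highest CPM. Of 36 genes 31 were expressed (86.1% against 59.8% of protein-coding genes), 2 were intermediate, 2 were low and LOXL4 was at 0, with a median of 33.8 CPM. COL1A1, the main chain of type I collagen (Entrez 1277; chromosome 17, 50184101 to 50201631), was at 421, 649 and 669.6 CPM, from 2375, 6047 and 8585 counts. Replicate 1 was the lowest of the 3 and replicates 2 and 3 were close. FN1, fibronectin (Entrez 2335; chromosome 2, 215360865 to 215436068), was at 459.8, 554 and 614 CPM, with replicate 1 again the lowest. SPARC, a collagen-binding matricellular protein, was at 412, 511 and 518 CPM. Per kilobase COL1A1 stood 1.44 ± 0.18-fold above FN1, with ratios of 1.25, 1.60 and 1.49 in replicates 1, 2 and 3. In CPM the ratios were 0.916, 1.17 and 1.09. The 3 values of these genes overlapped both per kilobase and in CPM. Within libraries COL1A1 was the higher in all 3 per kilobase but not in CPM, so their order depends on the scale.

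Chains of 1 collagen type differed in CPM. Type I collagen is assembled from COL1A1 and COL1A2 chains, with COL1A1 in excess. COL1A2 was at 31.0, 39.7 and 43.7 CPM, and per kilobase COL1A1 stood 12.1-, 14.6- and 13.7-fold above it. In CPM COL1A1 stood 13.6-, 16.3- and 15.3-fold above COL1A2. COL3A1, the collagen of reticular fibres, was at 9.22, 14.1 and 12.4 CPM. It stood 40.1 ± 3.85-fold below COL1A1 per kilobase and 48.6 ± 4.67-fold in CPM. The chains of collagen VI, which forms the pericellular microfibrils of chondrocytes, were at 324 ± 28.3 (COL6A1), 135 ± 18.8 (COL6A2) and 426 ± 12.8 CPM (COL6A3). COL6A1 exceeded COL6A2 by 1.96 ± 0.13-fold per kilobase and by 2.40 ± 0.16-fold in CPM, without overlap. COL6A3 and COL6A2 overlapped per kilobase, with a ratio of 1.02 ± 0.13, but in CPM the ratio was 3.18 ± 0.39 without overlap. THBS1 (thrombospondin 1) was at 196 ± 37.9 CPM, LOXL2, a collagen crosslinking enzyme, at 139 ± 23.0 and TNC (tenascin C) at 90.9 ± 22.8 CPM. The fibrillar collagens V were at 67.2 ± 5.95, 33.9 ± 2.90 and 45.2 ± 2.50 CPM (COL5A1, COL5A2 and COL5A3). LUM (lumican) exceeded 1 CPM in replicate 3 alone, at 0.177, 0.858 and 2.03 CPM, and FBLN5 (fibulin 5) was at 1.60, 1.502 and 0.936 CPM. ELN, elastin, had 0, 0 and 3 counts.

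Matrix levels were lower in replicate 1, the library with the fewest counts. Of the 31 expressed fibroblast matrix genes 20 had their lowest value in replicate 1 and 18 their highest in replicate 3. Of all 12325 expressed genes 36.1% were lowest in replicate 1. The summed level of the 36 genes was 3182, 3760 and 3971 CPM. In 25 expressed matrix receptors 16 were lowest in replicate 1, and in 32 expressed proliferation genes 9 were. The pattern was not particular to matrix genes. In 50 expressed growth factor receptors 25 were lowest in replicate 1, and in 13 expressed chondrogenic factors 7 were. In 25 expressed growth-arrest genes 8 were. The part of library depth in this pattern was not tested.

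**Figure D2:**
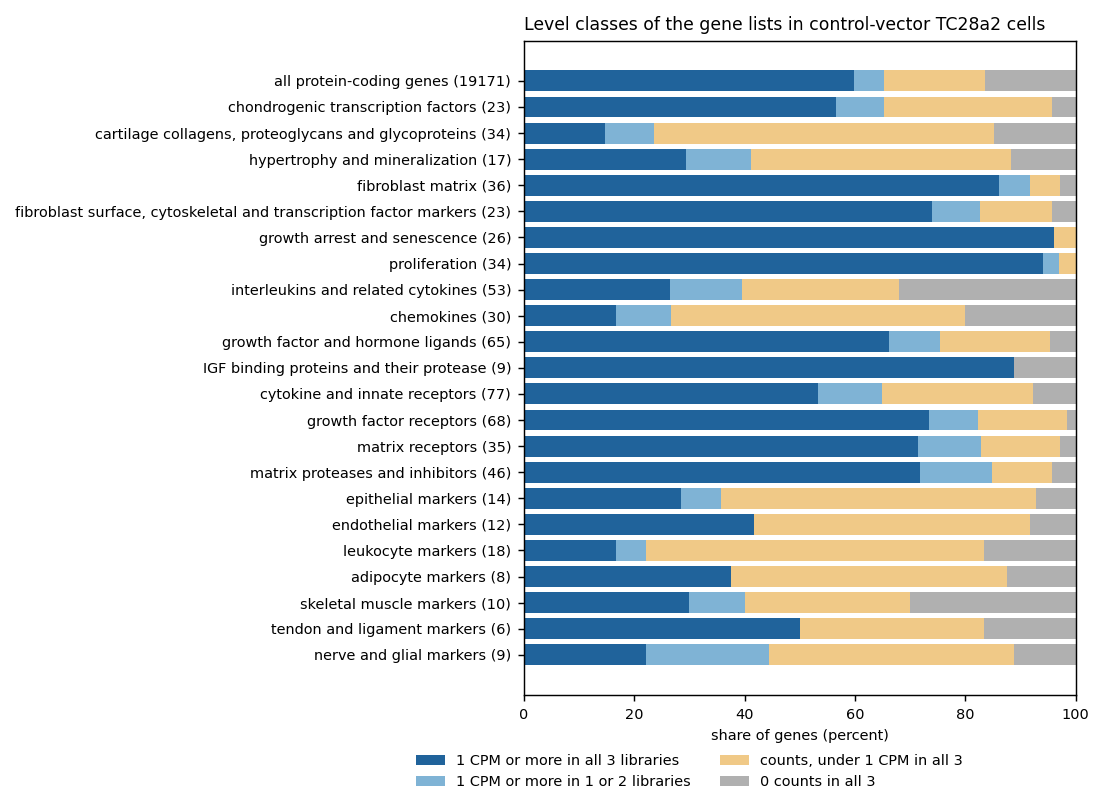
Share of each gene list in 4 level classes over the 3 control libraries, with the number of members in parentheses and all 19171 protein-coding genes in the top bar. Growth arrest, proliferation and fibroblast matrix lists hold the largest shares of expressed members among lists of more than 10 genes, while cartilage matrix genes (14.7%), chemokines (16.7%) and leukocyte markers (16.7%) hold the smallest.

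Most fibroblast surface, cytoskeletal and transcription factor markers were expressed. Of 23 genes 17 were expressed (73.9% against 59.8% of protein-coding genes), 2 were intermediate, 3 were low and TCF21 was at 0. VIM (vimentin), the intermediate filament of mesenchymal cells, was at 1542, 1509.8 and 1814 CPM. TAGLN (transgelin) was at 314 ± 15.1 CPM, whereas ACTA2, smooth muscle actin and a marker of myofibroblasts, was at 2.17 ± 0.708 CPM. The mesenchymal stromal markers NT5E and ENG were at 137 ± 15.6 and 134 ± 17.1 CPM and THY1 at 56.2 ± 3.46 CPM. Of the PDGF receptors PDGFRB was at 53.9, 67.9 and 64.7 and PDGFRA at 3.02, 2.90 and 3.51 CPM. Their ratio was 22.9 ± 3.52 per kilobase and 19.9 ± 3.06 in CPM, without overlap. SNAI2, a factor of mesenchymal transition, was at 35.7, 48.1 and 59.8 CPM, with replicate 3 the highest and replicate 1 the lowest. PDPN (podoplanin) had 1, 1 and 0 counts. FAP, the gene overexpressed in the other libraries of the series, had 0, 11 and 5 counts here, and its relative DPP4 had 2, 2 and 16.

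Growth-arrest genes were expressed side by side with a high level of proliferation genes. Of 26 growth-arrest and senescence genes 25 were expressed (96.2% against 59.8% of protein-coding genes), the exception being GADD45G with 3, 0 and 10 counts, and the median was 39.6 CPM. The list holds genes whose products rise in senescent cells and genes whose products are lost, so its count has no direction. CDKN2A, which encodes the inhibitor of CDK4 and CDK6 known as p16 and also the protein ARF (Entrez 1029; chromosome 9, 21967752 to 21995324), was at 260.1, 252 and 262 CPM. Its coefficient of variation of 2.02% was no larger than the 2.16% that counting error alone gives. Gene counts do not separate the transcripts of p16 and ARF. CDKN1A, the CDK inhibitor known as p21, was at 83.4, 93.1 and 96.5 CPM. Per kilobase CDKN2A stood 5.03 ± 0.42-fold above CDKN1A, and in CPM 2.85 ± 0.24-fold. It stood 157 ± 23.9-fold per kilobase and 51.4 ± 7.82-fold in CPM above CDKN2B, its neighbour and a related inhibitor, which was at 4.79, 4.40 and 6.16 CPM. CDKN1B, CDKN2C and CDKN2D lay between 14.1 and 17.4 CPM and CDKN1C at 3.37 ± 0.719 CPM.

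The RB family and other growth-arrest genes were expressed in all 3 libraries. RB1, whose product holds back entry into the cell cycle, was at 27.3 ± 3.77 CPM, and its relatives RBL1 and RBL2 at 44.9 ± 3.31 and 14.4 ± 3.24 CPM. GADD45A, a stress-induced growth arrest gene, was at 119.9 ± 10.5 CPM. BTG2, an antiproliferative gene, lay near the threshold at 1.06, 1.39 and 1.95 CPM. Among nuclear proteins whose loss marks senescence, LMNB1 (lamin B1) was at 77.3 ± 2.92 CPM and HMGB1 and HMGB2, chromatin proteins, at 1724 ± 131 and 407 ± 39.7 CPM. LMNA (lamins A and C) was at 921 ± 35.5 CPM and LMNB2 at 203 ± 9.28 CPM.

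Of 34 proliferation genes 32 were expressed (94.1% against 59.8% of protein-coding genes), with a median of 153 CPM. TOP2A, the topoisomerase of dividing cells, was at 1017, 1104 and 1063 CPM and MKI67, the gene of the proliferation marker Ki-67, at 653, 613 and 669 CPM. The kinetochore protein CENPF was at 709 ± 9.43 CPM, the helicase subunit MCM7 at 495 ± 24.7, BIRC5 (survivin) at 400.0 ± 27.2 and the mitotic kinase AURKA at 326 ± 9.84 CPM. The median coefficient of variation of the 32 genes was 5.45%, against 13.8% in expressed fibroblast matrix genes. The lists lie at different levels, with medians of 153 and 33.8 CPM over all members. Over all genes the median coefficient was 6.02% at 100 to 300 CPM and 7.85% at 30 to 100 CPM. TYMS, thymidylate synthase, stood apart from the other nucleotide enzymes with 5, 3 and 7 counts, while RRM2 was at 270.4 ± 26.0 and TK1 at 148 ± 6.19 CPM. The span of TYMS overlaps ENOSF1 and TYMSOS, which were at 4.97 and 3.34 CPM. The part of this overlap in the low count of TYMS was not tested.

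**Figure D3:**
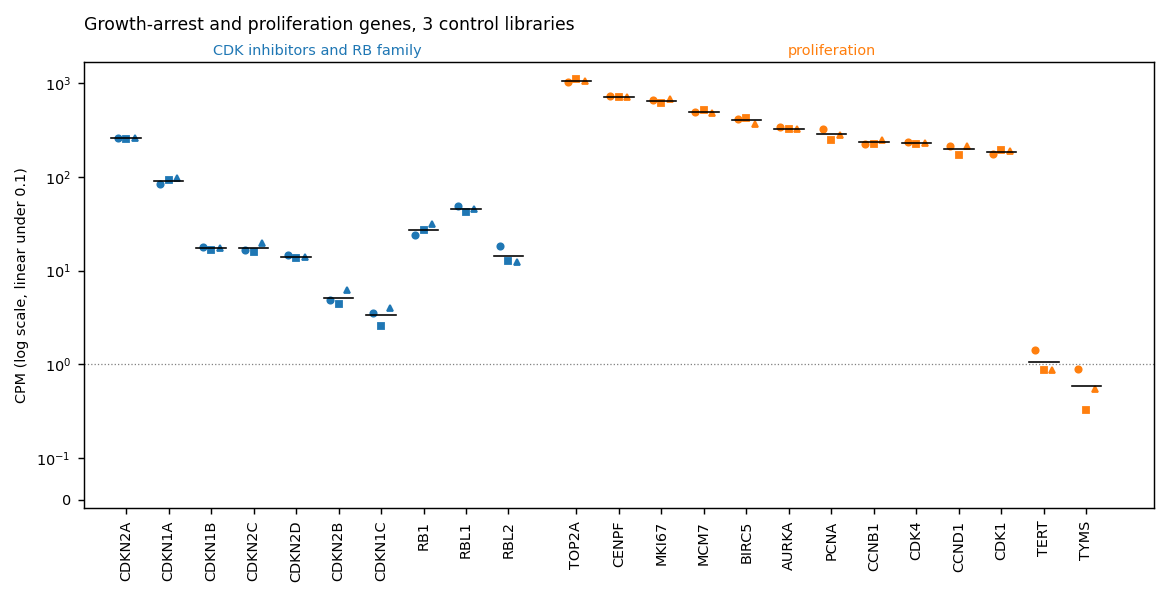
Levels of CDK inhibitors, RB family genes and proliferation genes in the 3 control libraries, in CPM on a log scale. Circles, squares and triangles are replicates 1, 2 and 3 and black lines are means. CDKN2A is the highest of the inhibitors, at 252 to 262 CPM, in libraries where MKI67 lies between 613 and 669 CPM.

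Cytokine genes were mostly low, and IL11 had the highest CPM among them. Of 53 interleukins and related cytokines 14 were expressed (26.4% against 59.8% of protein-coding genes), 7 were intermediate, 15 were low and 17 had 0 counts, with a median of 0.18 CPM. IL11, a member of the IL6 family, was at 70.4, 67.3 and 65.7 CPM. IL6 itself was at 3.19, 3.43 and 5.38 CPM. IL11 stood 12.0 ± 3.43-fold above IL6 per kilobase and 17.95 ± 5.13-fold in CPM. The family members LIF and CLCF1 were at 8.31 ± 1.13 and 17.7 ± 2.79 CPM, and OSM had 0 counts. TNFSF9, a ligand that costimulates T cells, was at 25.2 ± 0.770 CPM, TNFSF12 (TWEAK) at 15.4 ± 1.99, CSF1, the macrophage growth factor, at 23.0 ± 4.17 and IL32 at 20.9 ± 1.33 CPM.

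IL1 and TNF genes were near or at 0. IL1A had 0, 2 and 1 counts and IL1B 3, 2 and 3, so that neither passed 0.532 CPM in any library. TNF had 0 counts in all 3 libraries, as had CNTF, IFNA1, IFNG, IL10, IL12B, IL13, IL17A and IL2. CNTF lies wholly within the readthrough gene ZFP91-CNTF, also at 0. The span of IL10 overlaps IL19 in part, but 0% of its annotated exonic length does. MIF, a cytokine gene wholly within the span of MIF-AS1, likewise had 0 counts, and MIF-AS1 was at 4.79, 5.79 and 2.65 CPM. Near the threshold were IL24, TNFSF13B and TNFSF10, at 0.950 ± 0.868, 0.909 ± 0.423 and 0.853 ± 0.588 CPM.

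Few chemokines were expressed. Of 30 genes 5 were expressed (16.7% against 59.8%), 3 were intermediate, 16 were low and 6 were at 0. CCL5, a chemoattractant of T cells and monocytes, was at 16.7, 16.6 and 13.03 CPM, and CCL2, a monocyte chemoattractant, at 6.92, 9.23 and 8.74 CPM. CCL26, an eosinophil chemoattractant, was at 7.60 ± 1.88, CCL3 at 5.83 ± 1.49 and CXCL16 at 3.03 ± 0.243 CPM. CXCL8, the neutrophil chemoattractant and a common product of senescent cells, had 2, 1 and 5 counts. CXCL11, CCL28 and CXCL12 crossed 1 CPM in some libraries, with means of 1.45, 1.44 and 1.23 CPM. CCL13, CCL19, CCL8, CXCL13, CXCL5 and CXCL6 had 0 counts. CCL19 lies wholly within the span of PHF24, but 0% of its annotated exonic length overlaps another gene.

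Growth factor and hormone genes were expressed at a share near that of all protein-coding genes. Of 65 genes 43 were expressed (66.2% against 59.8%), 6 were intermediate, 13 were low and 3 were at 0, with a median of 8.33 CPM. LGALS1 (galectin 1), a secreted lectin, was at 1326, 1585 and 1389.6 CPM. STC2, the secreted glycoprotein stanniocalcin 2 (Entrez 8614; chromosome 5, 173314723 to 173328414), was at 417, 309 and 343 CPM, highest in replicate 1. Its relative STC1 was at 32.6, 27.6 and 38.1 CPM. STC2 stood 7.98 ± 1.37-fold above STC1 per kilobase and 10.996 ± 1.89-fold in CPM. The matricellular proteins CCN1 and CCN2 were at 234 ± 18.001 and 113 ± 10.6 CPM. INHBA, the activin A subunit, was at 167 ± 10.01 CPM and GREM1, a BMP antagonist, at 121 ± 17.6 CPM. TGFB1 and TGFB2 were at 82.3, 102 and 114 and 56.9, 52.5 and 52.7 CPM, and TGFB3 at 5.32 ± 1.44 CPM.

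Ligands that act on cartilage differed widely. BMP7 was at 22.3 ± 3.90, BMP4 at 5.84 ± 0.831, GDF6 at 8.76 ± 1.21 and GDF5, a factor of joint formation, at 0.770 ± 0.122 CPM, while BMP2 had 3, 1 and 6 counts. FGF2, which is stored in cartilage matrix, was at 41.3 ± 1.37 CPM and FGF18, a cartilage growth factor, at 0.745 ± 0.514 CPM. PTHLH, which holds back hypertrophy, was at 1.95, 1.29 and 1.33 CPM. HGF, TGFA and FRZB lay near the threshold, at 1.03 ± 0.251, 0.900 ± 0.589 and 0.875 ± 0.182 CPM. IGF1, the main anabolic factor of cartilage, had 4, 2 and 7 counts. IGF2, CCN5 and WNT2 had 0 counts. IGF2 lies wholly within the readthrough gene INS-IGF2, also at 0.

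The IGF binding proteins were present although IGF ligands were not detected above 1 CPM. Of 9 genes of binding proteins and their proteases 8 were expressed (88.9% against 59.8% of protein-coding genes) and IGFBP1 was at 0. IGFBP6, which prefers IGF2, was at 146, 203 and 158 CPM, with replicate 2 the highest. IGFBP4, IGFBP7 and IGFBP5 were at 112 ± 10.1, 70.4 ± 4.85 and 34.0 ± 1.60 CPM, and IGFBP2 and IGFBP3 at 12.0 ± 2.49 and 7.89 ± 1.25 CPM. PAPPA, a protease that cleaves IGFBP4 and is inhibited by stanniocalcins, was at 6.95 ± 1.55 CPM and PAPPA2 at 1.73 ± 0.607 CPM.

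Receptor chains for the IL6 family, IL1 and TNF were expressed. Of 77 cytokine and innate receptors 41 were expressed (53.2% against 59.8% of protein-coding genes), 9 were intermediate, 21 were low and 6 were at 0, with a median of 2.54 CPM. For the IL6 family, IL6ST, the shared signalling chain gp130, was at 57.8, 59.3 and 81.4 CPM. The chains that bind the ligands were at lower CPM, OSMR at 31.7 ± 6.09, LIFR at 17.5 ± 3.11, IL6R at 7.99 ± 1.43 and IL11RA at 5.43 ± 1.43 CPM. Per kilobase IL6ST stood 5.52 ± 1.35-fold above IL6R, and in CPM 8.45 ± 2.06-fold. For IL1, the receptor chains IL1R1 and IL1RAP were at 16.0, 13.4 and 14.4 and 8.51, 11.9 and 13.2 CPM, and the decoy IL1R2 at 0.637 ± 0.288 CPM. For TNF, TNFRSF1A was at 115, 127 and 138 and TNFRSF1B at 9.40, 7.40 and 7.02 CPM.

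Other receptors were unevenly spread over their families. TNFRSF12A, the receptor of TWEAK, was at 239.7, 218 and 238 CPM, in libraries where TNFSF12 was expressed as well. IL7R, the alpha chain of the IL7 receptor, was at 239, 194 and 199 CPM, whereas IL2RG, its partner chain in lymphocytes, was at 2.95 ± 0.977 CPM and IL7 had 1, 7 and 11 counts. TNFRSF21 was at 56.0 ± 1.03 CPM. Interferon receptor chains were present, IFNGR2 at 59.4 ± 3.07, IFNGR1 at 14.1 ± 1.15, IFNAR1 at 39.6 ± 2.14 and IFNAR2 at 16.5 ± 1.38 CPM. TLR4, the receptor of bacterial lipopolysaccharide, was at 18.4, 17.5 and 19.5 CPM, while TLR2 had 0, 2 and 2 counts. TLR3, CSF2RA and IL2RB lay near the threshold, at 0.947 ± 0.551, 1.16 ± 0.695 and 0.860 ± 0.474 CPM. CXCR1 and CXCR2, the receptors of CXCL8, had 0, 0 and 7 and 1, 0 and 1 counts. CCR2, CXCR3, IL2RA, TLR8, TLR9 and TNFRSF6B were at 0. TLR8 lies wholly within the span of TLR8-AS1, and TNFRSF6B within the readthrough gene RTEL1-TNFRSF6B, also at 0.

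**Figure D4:**
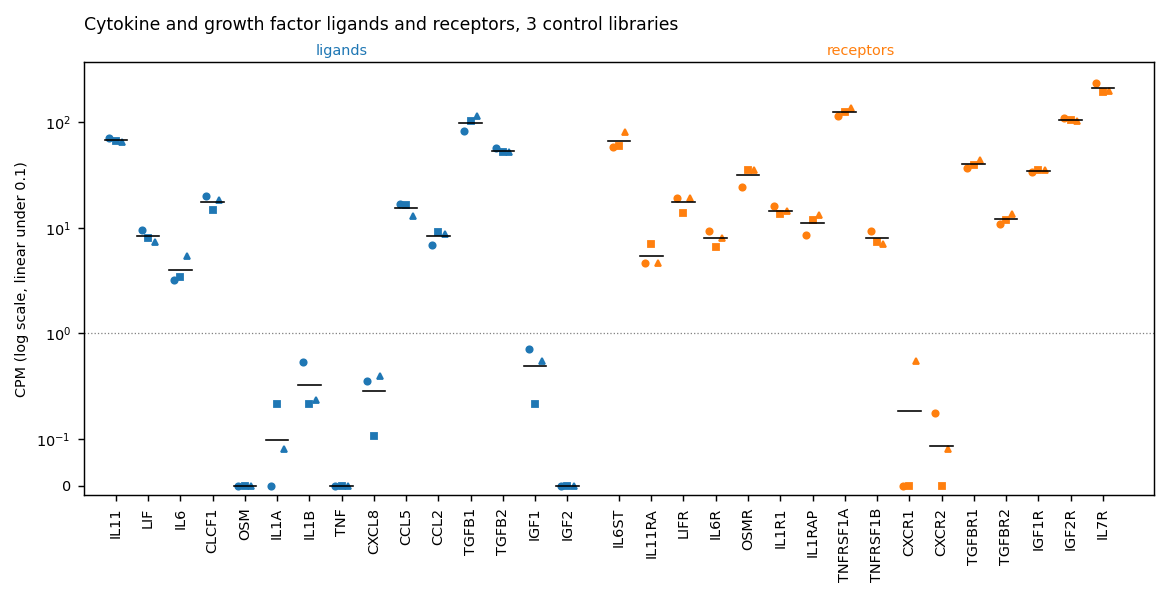
Levels of selected cytokine and growth factor ligands and of receptors in the 3 control libraries, in CPM on a log scale that is linear under 0.1. Circles, squares and triangles are replicates 1, 2 and 3, black lines are means and the dotted line marks 1 CPM. IL1A, IL1B, TNF and CXCL8 lie under 1 CPM in every library, while IL1R1, IL1RAP, TNFRSF1A and TNFRSF1B lie between 7.02 and 138 CPM.

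AXL and FGFR1 were among the growth factor receptors with the highest CPM. Of 68 genes 50 were expressed (73.5% against 59.8% of protein-coding genes), 6 were intermediate, 11 were low and ERBB4 was at 0, with a median of 8.30 CPM. AXL, the receptor kinase of GAS6, was at 191, 202 and 273 CPM, highest in replicate 3, and GAS6 itself at 106 ± 10.5 CPM. FGFR1 was at 146, 144 and 139 CPM and FGFR3, the receptor of growth plate chondrocytes, at 2.48, 1.93 and 1.48 CPM. Their ratio was 54.0 ± 12.5 per kilobase and 75.7 ± 17.5 in CPM, without overlap. IGF2R and IGF1R were at 106 ± 2.58 and 34.9 ± 0.935 CPM. TGFBR1 and TGFBR2, the receptor pair of TGF-beta, were at 37.3, 39.6 and 43.8 and 10.8, 11.8 and 13.5 CPM. TGFBR1 stood 2.37 ± 0.07-fold higher per kilobase and 3.35 ± 0.10-fold in CPM. The BMP receptors BMPR2 and BMPR1A were at 18.4 ± 0.586 and 6.62 ± 2.69 CPM and BMPR1B, which binds GDF5, at 0.649 ± 0.398 CPM. FZD2, a Wnt receptor, was at 106 ± 5.43, NRP1 (neuropilin 1) at 86.2 ± 1.86, MET, the receptor of HGF, at 82.7 ± 5.21 and EGFR at 14.6 ± 4.19 CPM. NTRK2 and FZD9 lay near the threshold, at 1.26 ± 0.522 and 0.616 ± 0.480 CPM. PTH1R, the receptor of PTHLH, had 3, 2 and 5 counts.

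Among receptors for matrix, integrin chains and CD44 had some of the highest CPM values. Of 35 genes 25 were expressed (71.4% against 59.8% of protein-coding genes), 4 were intermediate, 5 were low and ITGB6 was at 0. BSG (basigin) was at 471 ± 11.5 and CD44, the hyaluronan receptor, at 397, 393 and 420.4 CPM. ITGB1 was at 326 ± 45.9 CPM, and its partners ITGA3, a laminin receptor chain, and ITGA5, the fibronectin receptor chain, at 377 ± 41.3 and 339 ± 47.6 CPM. The syndecan SDC4 was at 211 ± 2.47 CPM. The collagen receptor chains ITGA1, ITGA2, ITGA10, which is typical of chondrocytes, and ITGA11 were at 11.5 ± 0.572, 46.1 ± 3.96, 5.45 ± 0.794 and 11.5 ± 0.830 CPM, and the collagen receptor kinase DDR2 at 84.9 ± 3.47 CPM. ITGB8, ITGA2B and ITGA7 lay near the threshold, at 0.970 ± 0.843, 1.08 ± 0.605 and 1.12 ± 0.673 CPM.

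Proteases and inhibitors of the matrix were both represented. Of 46 genes 33 were expressed (71.7% against 59.8% of protein-coding genes), 6 were intermediate, 5 were low, and MMP8 and TIMP4 were at 0. TIMP4 lies wholly within the span of SYN2. TIMP1, TIMP2 and TIMP3 were at 325 ± 28.5, 185 ± 5.95 and 284 ± 31.1 CPM. MMP1, interstitial collagenase, was at 23.1, 12.0 and 16.5 CPM, highest in replicate 1, and TIMP1 stood 37.1 ± 15.1-fold above it per kilobase and 20.6 ± 8.40-fold in CPM. MMP2 and MMP14, a gelatinase and its membrane activator, were at 60.0 ± 8.76 and 32.1 ± 1.28 CPM. MMP3 (stromelysin 1) was at 3.02, 1.18 and 1.87 CPM. The aggrecanases ADAMTS4 and ADAMTS5 had 1, 0 and 3 and 6, 0 and 4 counts. The lysosomal cathepsins CTSB and CTSL were at 247 ± 18.5 and 154 ± 10.3 CPM, and CTSK, a collagenolytic cathepsin, at 0.811 ± 0.242 CPM.

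Lists of markers for other cell types held both expressed genes and genes at 0. Of 14 epithelial markers 4 were expressed, 1 was intermediate, 8 were low and 1 was at 0. KRT18 and KRT8, keratins of simple epithelia, were at 870.3, 1009 and 880.1 and 408, 471 and 414 CPM. Their ratio was 2.92 ± 0.01 per kilobase and 2.13 ± 0.01 in CPM. KRT7 was at 17.8 ± 1.53 and CLDN4 at 1.74 ± 0.510 CPM. EPCAM and CDH1, epithelial adhesion proteins, had 0, 0 and 1 and 0, 4 and 0 counts and GRHL2 had 0. The summed epithelial level was 1299, 1503 and 1314 CPM, nearly all from the 2 keratins. Of 12 endothelial markers 5 were expressed, led by EGFL7 (18.3 ± 3.47 CPM) and TIE1 (7.97 ± 2.29 CPM), with CDH5 at 0, PECAM1 at 1, 4 and 9 counts and a summed level of 29.3, 42.0 and 32.6 CPM.

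Of 18 leukocyte markers 3 were expressed, CD68 (15.8 ± 0.917 CPM), a lysosomal protein, CD3D (4.71 ± 1.32 CPM) and CSF1R (4.002 ± 0.119 CPM). PTPRC, the pan-leukocyte marker CD45, had 0, 4 and 0 counts, CD3E had 0, 1 and 0, and AIF1, FCGR3A and MS4A1 were at 0. The summed leukocyte level was 25.7, 28.4 and 25.6 CPM. Of 8 adipocyte markers 3 were expressed, PPARG (8.66 ± 0.491 CPM), CEBPA (7.06 ± 0.864 CPM) and LPL (1.64 ± 0.404 CPM), with ADIPOQ at 0 and a summed level of 16.3 to 19.0 CPM. Of 10 skeletal muscle markers 3 were expressed. TNNT1, slow skeletal troponin T, was at 104, 103 and 88.3 CPM, while CKM, MYF5 and MYOD1 were at 0. The summed muscle level was 93.3 to 112 CPM. Of 6 tendon markers 3 were expressed, EGR1 (3.51 ± 1.45 CPM), MKX (1.76 ± 0.564 CPM) and SCX (1.42 ± 0.224 CPM), with TNMD at 0 and a summed level of 6.74 to 8.37 CPM. Of 9 nerve and glial markers 2 were expressed, TUBB3, a beta tubulin, at 321, 329.8 and 298 CPM and NEFL at 5.81 ± 1.82 CPM, with SOX10 at 0 and a summed level of 304 to 341 CPM. SOX10 lies wholly within the span of POLR2F. The part of these cell types in any level was not tested.

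The spread between the control libraries was small for most genes and depended on level. Over the 8573 genes that averaged 10 CPM or more the median coefficient of variation was 8.25%, against a median of 5.46% from counting error alone. From 10 to 30 CPM the medians were 11.2% and 8.22%, and at 1000 CPM or more, in 155 genes, 6.74% and 0.837%. The common biological coefficient of variation, which edgeR estimates after removing counting error, was 9.34% over 12171 genes. Spearman correlations over genes were 0.969 to 0.972 between libraries. Chi-square per degree of freedom, which treats counts as independent, was 5.21 to 6.78 for the 3 pairs.

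The genes with the largest spread relative to counting error were noncoding RNA copies and nucleolin. This ranking favours abundant genes. The median ratio of observed to counting coefficient was 1.36 at 10 to 30 CPM and 8.51 at 1000 CPM or more. SNAR-B1 was at 5199.6 CPM in replicate 1, 3758 in replicate 2 and 3333 in replicate 3. SNAR-B2, SNAR-A1, SNAR-A2, SNAR-A3, SNAR-A4, SNAR-A7, SNAR-A8 and SNAR-A10, copies in the same family of small noncoding RNAs, were likewise highest in replicate 1. The 28 SNAR genes in the table together held 3.43%, 2.28% and 2.16% of counts. Near-identical copies can share reads, so these may not be separate observations. The summed share may likewise hold the same reads more than once. NCL (nucleolin), a protein of ribosome assembly, was at 2625, 1605 and 1496 CPM, highest in replicate 1. Its coefficient of variation was 32.6%, against 0.796% from counting error. The pseudogene ATP5F1EP2 had a larger coefficient of variation, 69.2%, at a lower mean of 77.3 CPM.

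Several genes described above varied by more than counting error gives. COL1A1 had a coefficient of variation of 23.8% against 1.44% from counting error, FN1 14.3% against 1.49% and STC2 15.4% against 1.84%. SOX9 had 19.1% against 6.55% and MMP1 32.3% against 8.38%. Such an excess was common. Over all genes the median ratio of observed to counting coefficient was 3.39 at 300 to 1000 CPM, where COL1A1, FN1 and STC2 lay. At 10 to 30 CPM, where SOX9 and MMP1 lay, it was 1.36. CDKN2A, by contrast, stayed at its counting error. GAPDH varied by 1.51%, which was 3.92 times its counting error, below the median ratio of 8.51 among genes at 1000 CPM or more.

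**Figure D5:**
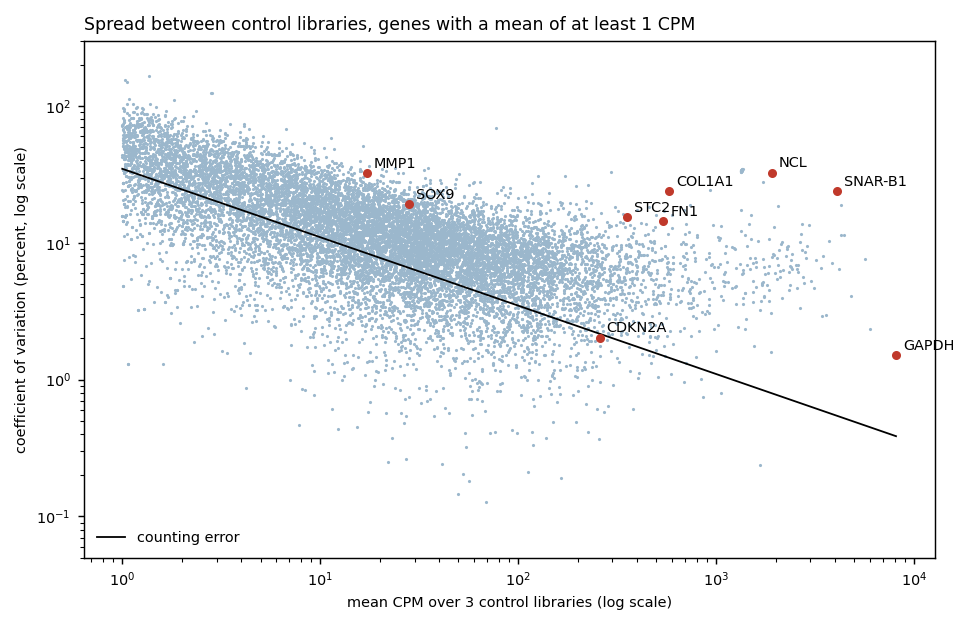
Coefficient of variation over the 3 control libraries against mean CPM, both on log scales, 1 point for each gene that averaged 1 CPM or more. The black line is the value from counting error, and named genes are in red. CDKN2A lies at the line, with 2.02%, while COL1A1, NCL and SNAR-B1 lie far above it, with 23.8%, 32.6% and 23.9%.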

How the data were processed

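RNA was measured in 3 libraries of TC28a2 cells transfected with a control vector and 3 with a FAP vector. The deposited table holds raw counts per gene from the authors. HISAT2, featureCounts, Subread and GRCh38 are named per the submitters' processing notes. The tools were listed with versions not given in the sources used here, and likewise the settings for strand, multi-mapped reads and molecular identifiers.

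Control counts were scaled to CPM with TMM factors (edgeR 4.0.16, R 4.3.3). The common biological coefficient of variation used genes that passed filterByExpr (at least 10 counts), and its script was tested on simulated data. Of 28395 gene IDs 27745 matched a symbol and 25455 had a transcript length (GENCODE release 29). Coordinates and the 250-base promoters are from RefSeq GRCh38.p14. Reads without molecular identifiers are not independent molecules.

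Alternatives were library totals, DESeq2 1.42.0 size factors, TMM on all 6 libraries, thinned counts, other thresholds and leaving out each replicate. The rule for named genes took a fixed set of markers, the 6 members with the highest CPM in each list, up to 8 members at 0 counts and up to 3 nearest to 1 CPM. It also took the 20 genes with the highest CPM and the 10 with the most spread relative to counting. Some genes that the rule takes in are not reported here. Other genes named were chosen after their values were seen. The members and lists were chosen with earlier results of these data known.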

Additional observations from a re-analysis of the deposited data

How the results depend on the processing

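The count of 12325 expressed genes was the same with library totals, with DESeq2 size factors and with TMM on all 6 libraries, since 1 CPM took the same whole counts each time. It was 12280 after thinning, 13257 at 0.5 CPM, 9710 at 5 CPM, 11919 at 10 counts or more, and 12471 to 12606 without 1 replicate. List counts moved with the threshold in the following cases. At 5 CPM, 2 cartilage matrix genes, 8 interleukins, 3 chemokines, 2 endothelial, 1 leukocyte, 1 skeletal muscle, 0 tendon and 1 nerve marker were expressed. At 0.5 CPM, 8 chemokines and 4 nerve markers were. With 10 counts or more, 3 cartilage matrix genes were. In CPM with no division by length, the ratio was 15.1 for COL1A1 over COL1A2, 48.6 for COL1A1 over COL3A1, 1.06 for COL1A1 over FN1, 2.40 for COL6A1 over COL6A2 and 3.18 for COL6A3 over COL6A2. It was 10.2 for RUNX3 over RUNX2, 2.75 for SOX9 over RUNX2, 2.85 for CDKN2A over CDKN1A, 51.4 for CDKN2A over CDKN2B, 17.95 for IL11 over IL6 and 8.45 for IL6ST over IL6R. It was 3.35 for TGFBR1 over TGFBR2, 75.7 for FGFR1 over FGFR3, 10.996 for STC2 over STC1, 20.6 for TIMP1 over MMP1 and 2.13 for KRT18 over KRT8. These ratios differ by construction, through transcript length. The common biological coefficient of variation was 9.73% with library totals, 9.70% with no filter and 8.64% to 9.97% without 1 replicate. Of 241 named gene levels, 4 moved by more than 1 SD with TMM on all 6 libraries, 4 after thinning, 2 without replicate 1 and 5 without replicate 3. No paired analysis was possible because the libraries form 1 group and no groups were compared. Depth limits genes near 1 CPM, where replicate 1 gives 6 counts, and a 0 in replicate 1 allows up to 0.532 CPM.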

Other observations

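Among gene families normally restricted to the germ line, GAGE genes were abundant in the control libraries. All 10 GAGE genes in the table were expressed, at 337 to 2119.8 CPM, and together held 1.16%, 1.51% and 1.33% of counts in replicates 1, 2 and 3. GAGE copies are near-identical and share reads, so their separate levels are uncertain and their summed share may hold the same reads more than once. Of 12 MAGEA genes 9 were expressed, with MAGEA3 the highest at 117 CPM and a family median of 13.4 CPM. Of 6 PAGE genes 4 were expressed (median 23.4 CPM), and of 5 XAGE genes 3 (median 4.65 CPM). XAGE1A and XAGE1B had nearly equal counts, 426, 899 and 1166 against 425, 889 and 1153. MAGEA2 and MAGEA2B were also close, so such pairs may not be separate observations. PAGE4 and XAGE2 had 0 counts. Over all protein-coding genes the share expressed was 59.8%. These families were chosen after their values were seen.

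The share of genes at 0 counts differed with how much of their exons another gene overlaps. Of 13671 protein-coding genes with no overlapped exon 18.5% had 0 counts and 56.4% were expressed. Of 5099 with an overlap of less than 50% of their exonic length 7.79% had 0 counts and 71.7% were expressed. Of 313 with at least 50% of their exonic length overlapped 45.7% had 0 counts and 29.1% were expressed, and of 90 with at least 90% overlapped 73.3% had 0 counts. The part of the counting settings in these zeros was not tested.

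Single genes outside the lists also varied between the control libraries. RRM1, a ribonucleotide reductase subunit, was at 242, 405 and 234 CPM, with replicate 2 the highest. ATP5F1EP2, a pseudogene, was at 44.9, 48.0 and 139 CPM, with replicate 3 the highest.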
